A study of Mus musculus with 12 samples.

Results

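The mitosis genes are a list of 59 genes whose proteins build, drive or check cell division, and they were followed here in natural killer (NK) cells from mice with and without the microRNA miR-142. A gene was measured where a probe set of the array is annotated with its symbol and no other, and the probe set with the highest mean was used. That gave 58 of the 59 genes, out of 19938 genes measured in all. Ccnb1, the gene of cyclin B1, has no such probe set here and is not analysed. A mean over the 12 arrays above the 40th percentile of all genes, 5.49 on the log2 scale, was required for testing, and 57 of the 58 passed, beside 11963 genes in all. Cdc25c, the gene of a phosphatase that activates Cdk1, did not pass.

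Per the labels, all mice were C57BL6, 7 to 10 weeks old, and WT and KO animals were matched for age and sex. NK cells were sorted as CD3- NK1.1+ cells. The 4 groups of 3 arrays were miR142 WT spleen, miR142 KO spleen, miR142 WT bone marrow and miR142 KO bone marrow, abbreviated below as WT and KO with the tissue. The study looked for genes whose expression differed and might bear on the KO phenotype. No group was treated. The labels state neither the form of the KO allele nor the number of mice behind an array.

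A cell that divides duplicates its DNA in S phase, and in G2 and mitosis condenses and aligns the chromosomes on a spindle, separates them and splits. The genes for this machinery are switched on late in the cycle, and their transcripts are therefore low in resting cells. Many of their promoters hold CCAAT boxes and CHR elements, and complexes of B-Myb and FOXM1 bind the latter. NK cells divide most while they develop in the bone marrow, and most mature NK cells of the spleen rest until stimulated. MicroRNAs such as miR-142, which is abundant in blood cells, pair through their seed with target mRNAs and lower their level or translation.

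The 2 mature products of Mir142 are shown because their loss is the difference between the genotypes, with the seed (bases 2 to 8) in capitals. They lie at chr11:87756867-87756887 and chr11:87756903-87756925 on the plus strand of GRCm38.p6, in RefSeq's annotation. The seeds differ from each other.
mmu-miR-142a-5p: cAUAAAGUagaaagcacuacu
mmu-miR-142a-3p: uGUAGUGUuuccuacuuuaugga

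Promoters of 6 members are shown. They were picked among the members with values given on every array whose promoter holds a CHR element, so all 6 hold one by choice. Each line runs 5′ to 3′ on the gene's strand, from 150 bases before the RefSeq start to 50 after it. The capitals mark CHR elements (TTTGAA or TTCGAA, searched on both strands) and CCAAT boxes (CCAAT, both strands, so also ATTGG). Mki67 is at chr7:135716330-135716529 on the minus strand, Top2a at chr11:99024140-99024339 minus and Cdk1 at chr10:69352863-69353062 minus. Cdc20 is at chr4:118437294-118437493 minus, Plk1 at chr7:122159285-122159484 plus and Bub1 at chr2:127831810-127832009 minus, all in GRCm38.p6.
Mki67: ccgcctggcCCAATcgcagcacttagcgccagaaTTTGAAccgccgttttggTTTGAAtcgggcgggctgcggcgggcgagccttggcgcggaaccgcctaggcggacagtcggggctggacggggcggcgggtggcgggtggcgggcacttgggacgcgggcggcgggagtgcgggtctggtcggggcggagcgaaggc
Top2a: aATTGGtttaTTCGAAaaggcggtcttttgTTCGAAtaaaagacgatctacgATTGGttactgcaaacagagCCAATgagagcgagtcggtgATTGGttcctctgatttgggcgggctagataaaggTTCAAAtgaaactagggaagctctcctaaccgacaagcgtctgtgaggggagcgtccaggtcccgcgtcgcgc
Cdk1: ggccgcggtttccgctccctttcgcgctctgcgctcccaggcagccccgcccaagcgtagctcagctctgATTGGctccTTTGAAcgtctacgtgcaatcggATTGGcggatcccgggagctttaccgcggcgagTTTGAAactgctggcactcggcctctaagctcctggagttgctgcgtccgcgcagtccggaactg
Cdc20: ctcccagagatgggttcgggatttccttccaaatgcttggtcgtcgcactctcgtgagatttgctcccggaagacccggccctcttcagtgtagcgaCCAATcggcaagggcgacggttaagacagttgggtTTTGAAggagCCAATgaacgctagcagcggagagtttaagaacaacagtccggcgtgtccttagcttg
Plk1: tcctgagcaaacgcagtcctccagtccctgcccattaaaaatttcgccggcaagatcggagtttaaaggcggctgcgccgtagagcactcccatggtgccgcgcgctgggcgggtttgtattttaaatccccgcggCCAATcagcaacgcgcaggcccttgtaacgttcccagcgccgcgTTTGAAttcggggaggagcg
Bub1: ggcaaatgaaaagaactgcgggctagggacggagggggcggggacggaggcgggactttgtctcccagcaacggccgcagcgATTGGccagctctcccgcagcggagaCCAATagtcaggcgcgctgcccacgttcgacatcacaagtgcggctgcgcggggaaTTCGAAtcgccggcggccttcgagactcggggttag

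In these windows the CHR match nearest the start begins 15 bases before it in Cdk1, 18 before it in Cdc20 and 23 before it, on the reverse strand, in Top2a. The match begins 31 bases after the start in Plk1 and 15 after it in Bub1, whereas both Mki67 matches lie farther upstream, at 116 and 98 bases. RefSeq's table held a window of 300 bases (250 before and 50 after the start) for 50 of the 59 members. A CHR match was found in 36 of these 50 genes (72.0%), against 21.7% of the 27025 genes with such a window. A CCAAT match was found in 34 (68.0%, against 41.1%), and both in 29 (58.0%, against 8.61%). Of the 53 CHR matches in member promoters, 69.8% began within 50 bases of the start, against 25.2% of the 7260 matches in all promoters. These matches were counted per window, with 54 windows for the 50 members, so a site in overlapping windows counts more than once, as in Ect2. In a list of DNA replication genes, which act in S phase, 6 of 32 promoters held a CHR match (18.8%), and in a list of G1 cyclins and cell cycle inhibitors 1 of 12 did (8.33%). The element was not particular to the members: in a second list of mitosis genes 34 of 49 promoters held a CHR match (69.4%) and 51.0% both elements, and in a list of cell cycle regulators 8 of 17 held a CHR match (47.1%). A match is a run of letters and was not tested for binding.

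Mir142 was measured first, as a check of the genotype labels. Its log2 signal was 6.77, 7.17 and 7.58 in WT spleen, 7.10, 8.25 and 7.14 in WT bone marrow, 4.05, 4.59 and 4.50 in KO spleen and 4.69, 4.70 and 4.26 in KO bone marrow. All 6 KO arrays lay below all 6 WT arrays. Of the cell type markers, a list of 10 NK genes had a mean of 11.27 to 11.68 on every array. Between WT bone marrow and WT spleen 10 of 10 differences of these NK genes were negative, with a median of -0.24 and 2 called as lower, the cytotoxic genes Gzma and Prf1. Over the 12 arrays their mean had a Pearson correlation of -0.85 with the mean of the mitosis genes, as a description over arrays that share their groups. The array medians lay between 5.75 and 5.87. Array intensities carry no read depth, and 3 arrays per group limit the precision. Expression was measured in bulk RNA, so a smaller share of dividing cells and less RNA of these genes in each dividing cell cannot be told apart.

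The mean of the 57 tested members was lowest in spleen and highest in bone marrow. On the log2 scale it was 6.29, 5.89 and 5.79 on WT spleen arrays 1, 2 and 3, and 6.64, 6.19 and 6.12 in KO spleen. It was 7.97, 7.53 and 7.08 in WT bone marrow, and 8.0, 7.00 and 6.18 in KO bone marrow. The WT spleen and WT bone marrow arrays did not overlap, whereas KO bone marrow array 3 lay below WT spleen array 1 and KO spleen arrays 1 and 2, and the other two KO bone marrow arrays lay above all spleen arrays. The group means were 5.99 ± 0.27 in WT spleen, 6.32 ± 0.28 in KO spleen, 7.53 ± 0.45 in WT bone marrow and 7.06 ± 0.91 in KO bone marrow (SD, n = 3). For 40 of the 57 genes the group means rank in that order, WT spleen, KO spleen, KO bone marrow, WT bone marrow. Neighbours in this order overlapped in their arrays for 45 genes between WT and KO spleen, 51 between KO spleen and KO bone marrow and 57 between KO and WT bone marrow. Most of all genes overlapped too. In KO against WT spleen 14% of all genes lay wholly higher and 14% wholly lower, and in bone marrow 16.4% and 17.8%. In KO mice 7.62% lay wholly higher in bone marrow than in spleen. The highest of the 12 arrays was KO bone marrow 1 for 30 genes, WT bone marrow 1 for 26 and WT bone marrow 2 for 1.

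**Figure D1:**
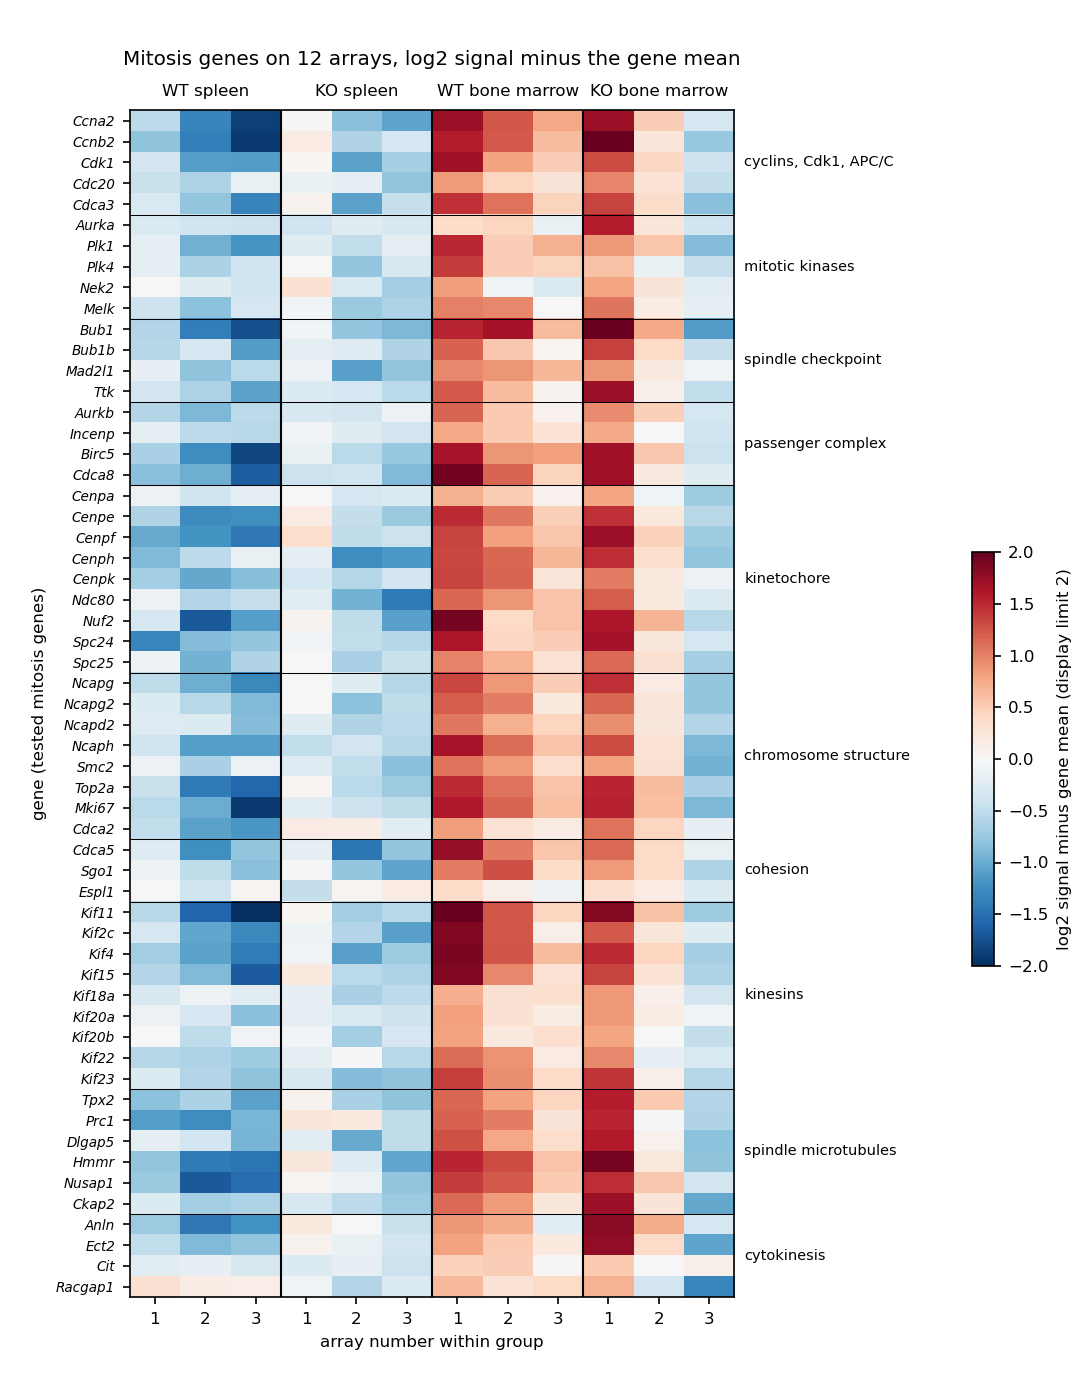
Each row is 1 of the 57 tested mitosis genes, ordered by role, and each column 1 of the 12 arrays, with the colour giving the log2 signal minus the gene's mean over all arrays (red above, blue below, display limit 2). Red prevails in the WT bone marrow columns, with a few blue cells such as Nek2, and fills KO bone marrow column 1, while KO bone marrow column 3 is mostly blue like the spleen columns.

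Between the tissues of WT mice, 32 of the 57 genes were higher in bone marrow than in spleen and 0 were lower (limma, Benjamini-Hochberg adjusted p under 0.05, n = 3 arrays per group). Among all 11963 genes, 4.34% were higher, 1.04% lower and 5.37% changed in either direction. All 57 differences were positive, with a median of 1.51 on the log2 scale (2.84-fold) against a median of -0.02 over all genes, and without a filter on low signal the 58 measured members had 31 called and a median of 1.5. The 3 bone marrow arrays lay above the 3 spleen arrays for 54 of the 57 genes, against 16.4% of all genes. Differences are fitted with the run of array numbers as a covariate, so they can differ from the gap between group means. The count depends on single arrays. It was 19, 6 and 1 without WT spleen array 1, 2 or 3, 0 and 11 without WT bone marrow array 1 or 2, and 49 without KO bone marrow array 1, which enters only through the common estimate of the spread. Calls over all 11963 genes fell too, from 643 to 323, 294 and 147 without WT spleen array 1, 2 or 3. They fell to 82 and 395 without WT bone marrow array 1 or 2. For the fit without KO bone marrow array 1 the calls over all genes are not given here. The median stayed between 1.26 and 1.72 when any 1 array was left out, and was 1.87 within the first run and 1.46 within the second.

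The cyclins and Cdk1 drive entry into mitosis, and 4 of the 5 tested genes of this group were higher in WT bone marrow. Ccna2, the gene of cyclin A2, had signals of 7.68, 6.89 and 6.33 in WT spleen, 8.22, 7.37 and 7.14 in KO spleen, 9.91, 9.44 and 8.97 in WT bone marrow and 9.91, 8.69 and 7.87 in KO bone marrow. In WT it was higher in bone marrow by 2.59 ± 0.50 (SE), or 6.01-fold (limma, Benjamini-Hochberg adjusted p = 0.0135). Ccnb2, a B-type cyclin, was at 7.49, 6.92 and 6.39 in WT spleen, 8.46, 7.70 and 7.96 in KO spleen, 9.86, 9.52 and 8.92 in WT bone marrow and 10.27, 8.54 and 7.54 in KO bone marrow, and its WT tissue difference was 2.65 ± 0.55 (adjusted p = 0.0196 in limma). For both cyclins the WT arrays of the tissues were far apart, and KO bone marrow array 3 lay within the range of the KO spleen arrays or below it. Cdk1, their kinase partner, was at 6.69, 5.94 and 5.94 in WT spleen, 7.09, 5.97 and 6.38 in KO spleen, 8.74, 7.86 and 7.54 in WT bone marrow and 8.35, 7.46 and 6.63 in KO bone marrow. Its WT tissue difference was 2.00 ± 0.43 (adjusted p = 0.0229 in limma). Cdc20, which activates the ubiquitin ligase that ends mitosis, was at 6.07, 5.90 and 6.36 in WT spleen, 6.38, 6.31 and 5.73 in KO spleen, 7.37, 6.93 and 6.77 in WT bone marrow and 7.48, 6.79 and 6.04 in KO bone marrow. It was the only tested member of these 5 not called (0.86 ± 0.32, adjusted p = 0.137), although the WT arrays of the tissues did not overlap. Cdca3, a regulator of mitotic entry, was called at 1.98 ± 0.48. The untested Cdc25c had group means of 4.60 ± 0.21, 5.07 ± 0.16, 5.66 ± 0.49 and 5.63 ± 0.83 (SD) in WT spleen, KO spleen, WT bone marrow and KO bone marrow.

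Of the 5 mitotic kinases, Plk1 and Plk4 were higher in WT bone marrow. Plk1, which acts from mitotic entry to cytokinesis, had signals of 5.95, 5.18 and 4.96 in WT spleen, 5.89, 5.64 and 5.94 in KO spleen, 7.65, 6.63 and 6.85 in WT bone marrow and 7.01, 6.69 and 5.26 in KO bone marrow. Its WT tissue difference was 1.87 ± 0.38 (limma, Benjamini-Hochberg adjusted p = 0.0186). KO bone marrow array 3 was below every KO spleen array for this gene. Plk4, the kinase of centriole duplication, was called at 1.29 ± 0.30. Aurka, the spindle pole kinase, was not (0.61 ± 0.38), nor were Melk (1.19 ± 0.35) and the centrosome kinase Nek2 (0.44 ± 0.34), which was 1 of the 3 genes whose WT arrays overlapped between tissues.

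The spindle checkpoint delays chromosome separation until every kinetochore is attached, and 2 of its 4 genes were called. Bub1, a checkpoint kinase, was at 5.48, 4.68 and 4.31 in WT spleen, 6.01, 5.29 and 5.16 in KO spleen, 7.59, 7.73 and 6.69 in WT bone marrow and 8.04, 6.82 and 4.94 in KO bone marrow. The WT tissue difference was 2.59 ± 0.64 (adjusted p = 0.0383 in limma), and the KO bone marrow arrays ran from the highest of the 12 down into the range of WT spleen. Mad2l1, the inhibitor of Cdc20, was called at 1.35 ± 0.29, whereas Bub1b (1.38 ± 0.40) and Ttk (1.47 ± 0.45) were not.

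All 4 genes of the chromosomal passenger complex, which corrects attachments and later acts at the midzone, were higher in WT bone marrow. Birc5, the gene of survivin, was at 7.05, 6.46 and 5.89 in WT spleen, 7.57, 7.16 and 6.94 in KO spleen, 9.35, 8.58 and 8.53 in WT bone marrow and 9.38, 8.24 and 7.28 in KO bone marrow. Cdca8, the gene of borealin, was at 6.06, 5.92 and 5.24 in WT spleen, 6.47, 6.50 and 6.01 in KO spleen, 8.83, 8.07 and 7.35 in WT bone marrow and 8.59, 7.08 and 6.65 in KO bone marrow. Both differed by 2.49 between WT tissues, with SE 0.45 for Birc5 and 0.46 for Cdca8 (limma, Benjamini-Hochberg adjusted p = 0.0105 and 0.0111). Aurkb, the kinase of the complex, was at 6.37, 6.06 and 6.44 in WT spleen, 6.63, 6.58 and 6.83 in KO spleen, 8.12, 7.48 and 7.04 in WT bone marrow and 7.90, 7.43 and 6.60 in KO bone marrow. It differed by 1.35 ± 0.31 and the scaffold gene Incenp by 0.99 ± 0.25, so the kinase and the scaffold showed a smaller difference than the other two subunits.

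At the centromere and kinetochore, where chromosomes meet the spindle, 4 of 9 genes were called. Cenpk, a subunit of the inner kinetochore, had the smallest p of all members in this comparison. Its signal was 5.74, 5.39 and 5.56 in WT spleen, 6.07, 5.84 and 6.03 in KO spleen, 7.77, 7.58 and 6.66 in WT bone marrow and 7.44, 6.61 and 6.30 in KO bone marrow. The WT tissue difference was 1.86 ± 0.30, or 3.62-fold (limma, Benjamini-Hochberg adjusted p = 0.00654), and here the KO tissues did not overlap either. Cenpe, a kinetochore motor (2.08 ± 0.45), Cenpf (2.19 ± 0.48) and the Ndc80 complex subunit Spc24 (1.89 ± 0.46) were called as well. Ndc80 itself, the microtubule-binding subunit, was at 7.29, 6.82 and 6.94 in WT spleen, 7.20, 6.46 and 6.0 in KO spleen, 8.55, 8.28 and 7.98 in WT bone marrow and 8.62, 7.60 and 7.12 in KO bone marrow, with an uncalled WT tissue difference of 1.22 ± 0.38. Cenpa, the histone variant that marks centromeres, was at 7.88, 7.59 and 7.80 in WT spleen, 8.01, 7.65 and 7.71 in KO spleen, 8.70, 8.50 and 8.08 in WT bone marrow and 8.79, 7.91 and 7.29 in KO bone marrow. Its difference was the smallest of the 9, 0.69 ± 0.31 (adjusted p = 0.208 in limma).

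Among 8 genes of chromosome structure, 6 were called. Mki67, the gene of the chromosome surface protein Ki-67 and a common marker of cycling cells, was at 7.93, 7.47 and 6.54 in WT spleen, 8.23, 8.05 and 7.95 in KO spleen, 10.05, 9.62 and 9.07 in WT bone marrow and 9.99, 9.05 and 7.56 in KO bone marrow. Top2a, the topoisomerase that untangles sister chromatids, was at 8.18, 7.21 and 7.05 in WT spleen, 8.68, 8.09 and 7.89 in KO spleen, 10.12, 9.71 and 9.19 in WT bone marrow and 10.14, 9.25 and 7.98 in KO bone marrow. WT bone marrow was above WT spleen by 2.46 ± 0.50 for Mki67 (5.49-fold, adjusted p = 0.0176 in limma) and by 2.28 ± 0.49 for Top2a (adjusted p = 0.0217). For both genes KO bone marrow arrays 1 and 2 were above all spleen arrays and array 3 was not. A second Top2a probe set was dimmer, at 6.16, 6.32, 6.92 and 6.33 as group means in WT spleen, KO spleen, WT bone marrow and KO bone marrow. The condensin genes Ncaph (2.09 ± 0.45), Ncapg (1.90 ± 0.45) and Ncapd2 (1.31 ± 0.31) were called, whereas Ncapg2 (1.49 ± 0.42) and Smc2 (1.03 ± 0.38) were not. Cdca2, which brings a phosphatase to chromatin as mitosis ends, was called at 1.41 ± 0.30.

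Cohesin holds sister chromatids together until separase cuts it. Cdca5, the gene of the cohesion factor sororin, was at 5.94, 4.97 and 5.41 in WT spleen, 6.0, 4.75 and 5.42 in KO spleen, 7.94, 7.22 and 6.75 in WT bone marrow and 7.32, 6.58 and 6.04 in KO bone marrow. It was called (1.98 ± 0.41, adjusted p = 0.0186 in limma), and in both genotypes the tissues did not overlap. The centromere protector Sgo1 (1.39 ± 0.39) and separase itself, Espl1 (0.30 ± 0.21), were not called.

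Kinesins are motors on spindle microtubules, and 6 of their 9 genes were called. Kif11, which pushes the spindle poles apart, had the largest WT tissue difference of all members. Its signal was 6.91, 5.88 and 5.43 in WT spleen, 7.51, 6.79 and 6.91 in KO spleen, 9.45, 8.70 and 7.90 in WT bone marrow and 9.30, 8.05 and 6.76 in KO bone marrow. The difference was 2.82 ± 0.57, or 7.05-fold (limma, Benjamini-Hochberg adjusted p = 0.0171). Kif4, a motor on chromosome arms, was at 5.22, 4.84 and 4.51 in WT spleen, 5.84, 4.82 and 5.20 in KO spleen, 7.79, 7.16 and 6.55 in WT bone marrow and 7.41, 6.34 and 5.25 in KO bone marrow. Kif15, which can keep the spindle bipolar beside Kif11, was at 6.35, 6.04 and 5.26 in WT spleen, 7.13, 6.39 and 6.31 in KO spleen, 8.78, 7.89 and 7.22 in WT bone marrow and 8.28, 7.20 and 6.32 in KO bone marrow. Kif4 differed by 2.46 ± 0.47 and Kif15 by 2.27 ± 0.47 (adjusted p = 0.0135 and 0.0201 in limma). Kif2c, Kif22 and Kif20a were called at 2.07 ± 0.46, 1.38 ± 0.33 and 0.97 ± 0.24, and Kif23, Kif18a and Kif20b were not.

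Of 6 other spindle genes, Nusap1, Prc1 and Hmmr were called. Nusap1, which bundles spindle microtubules, was at 6.54, 5.62 and 5.77 in WT spleen, 7.35, 7.17 and 6.51 in KO spleen, 8.69, 8.52 and 7.82 in WT bone marrow and 8.76, 7.83 and 6.93 in KO bone marrow. It differed by 2.37 ± 0.44 between WT tissues (adjusted p = 0.0115 in limma). The midzone bundler Prc1 differed by 1.86 ± 0.46 and Hmmr by 2.35 ± 0.58. Of the 4 cytokinesis genes 0 were called in limma and 3 had an unadjusted p under 0.05, and the WT arrays of Racgap1, a regulator of the contractile ring, overlapped between tissues. Racgap1 was at 7.50, 7.36 and 7.34 in WT spleen, 7.13, 6.62 and 6.94 in KO spleen, 7.86, 7.48 and 7.60 in WT bone marrow and 7.90, 6.82 and 5.91 in KO bone marrow. Anln, the gene of the ring scaffold anillin, was at 5.84, 5.14 and 5.36 in WT spleen, 6.75, 6.56 and 6.12 in KO spleen, 7.44, 7.31 and 6.33 in WT bone marrow and 8.36, 7.30 and 6.22 in KO bone marrow. Its WT tissue difference was 1.61 ± 0.47 (adjusted p = 0.0722 in limma).

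**Figure D2:**
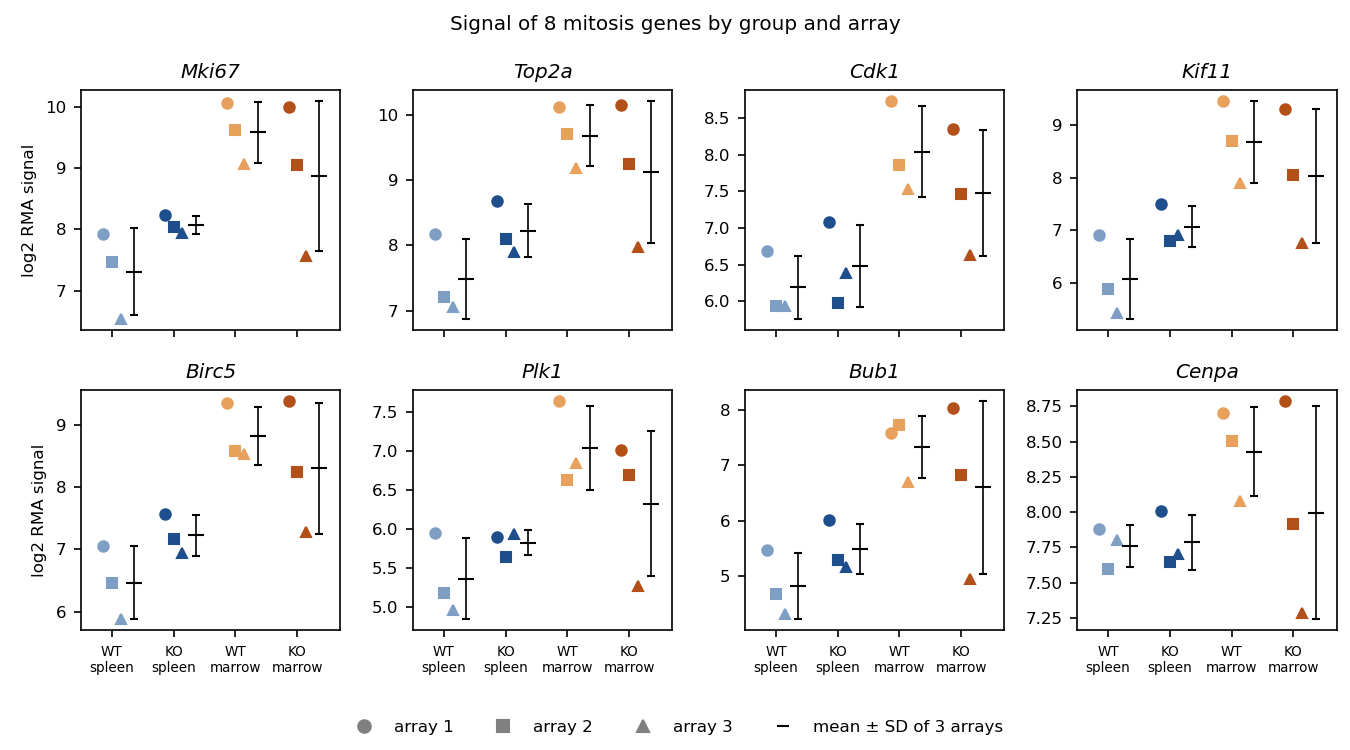
The log2 signal of 8 mitosis genes is plotted for each array (circle, square and triangle for arrays 1, 2 and 3) in the 4 groups, with the mean ± SD of 3 arrays in black. For Mki67 the WT bone marrow arrays lie between 9.07 and 10.05, above all spleen arrays, while the KO bone marrow arrays spread from 7.56 to 9.99.

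Within KO mice the same tissue comparison called 0 of the 57 genes (limma, adjusted p under 0.05), against 0.318% of all genes, and 5 had an unadjusted p under 0.05 (8.77%, against 9.25% of all genes). The differences were positive for 56 of 57, with a median of 0.55, or 1.47-fold. The KO bone marrow arrays lay above the KO spleen arrays for 6 genes, Mad2l1, Cdca8, Cenpk, Cdca5, Kif20a and Cit, the citron kinase of cytokinesis (10.5% of the 57, against 7.62% of all genes). Ccna2, for example, differed by 1.02 ± 0.55 (95% interval -0.18 to 2.22), Mki67 by 0.42 ± 0.55 (-0.78 to 1.63) and Plk1 by 0.12 ± 0.42 (-0.80 to 1.05). These intervals reach well above 0, so a tissue difference in KO was not shown to be absent. The median was 0.11 without KO bone marrow array 1, 0.10 without KO spleen array 3 and 1.08 without KO bone marrow array 3. Without the run as a covariate it was 0.79, against 0.55 with it.

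**Figure D3:**
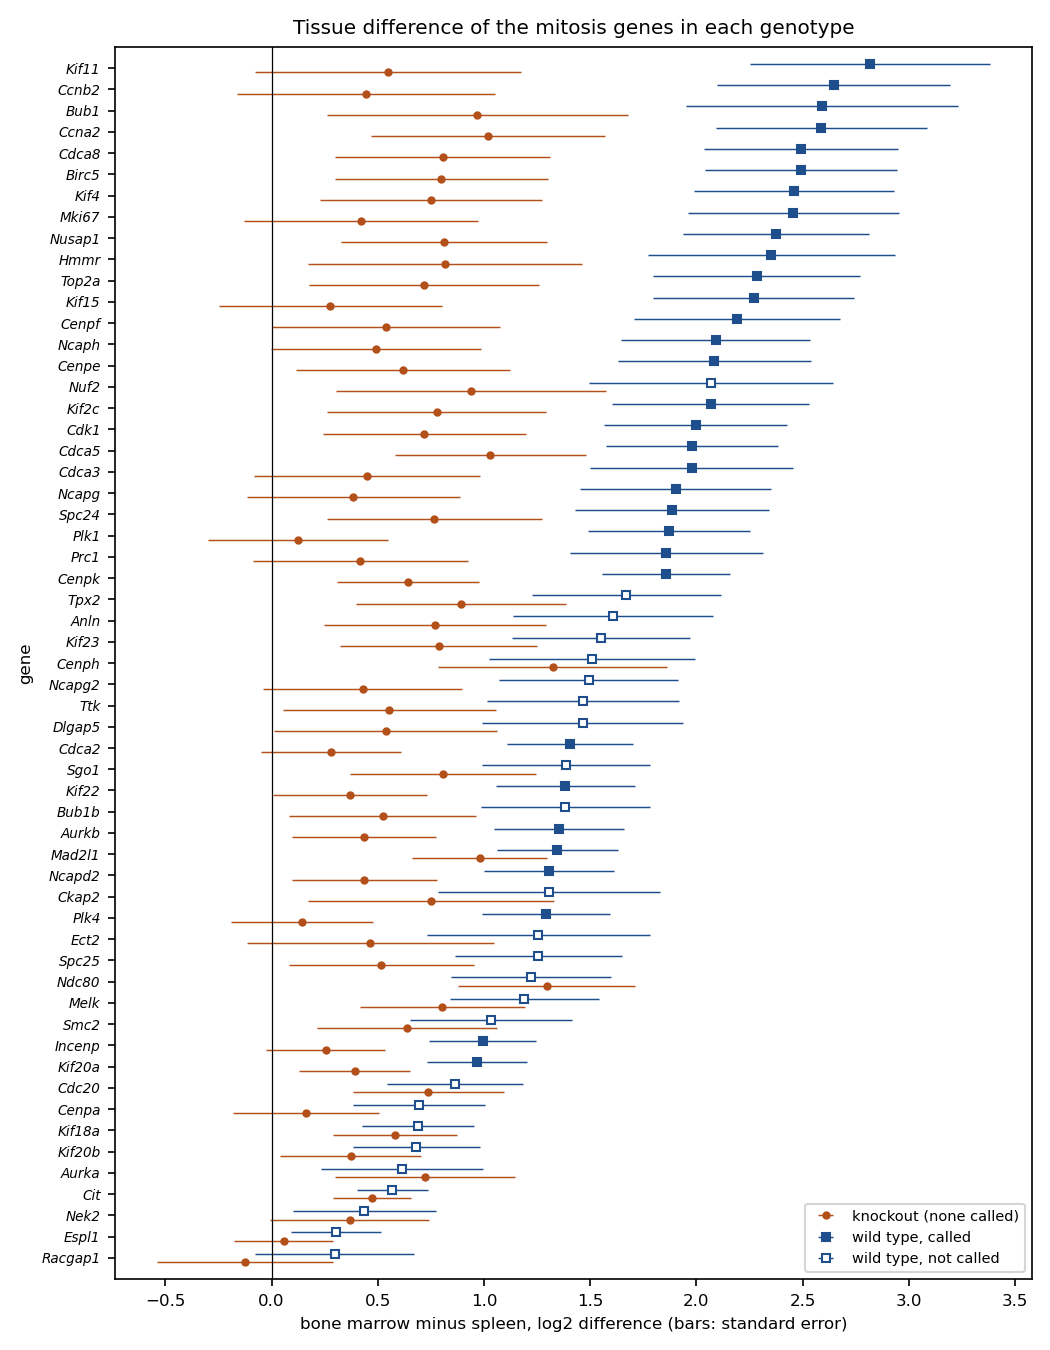
For each tested mitosis gene the difference between bone marrow and spleen (log2, bars ± SE) is plotted for WT (squares, filled where called) and KO (circles), ordered by the WT difference. The WT squares run up to 2.82 for Kif11, and most KO circles lie to the left of them, with a median of 0.55 against 1.51.

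In spleen, 0 of the 57 genes were called between KO and WT (limma, Benjamini-Hochberg), against 9.11% of all genes, and 6 had an unadjusted p under 0.05 (10.5%, against 22.1% of all genes). The difference was positive for 46 genes and the median was 0.43 (1.35-fold), against -0.01 over all genes. The largest was that of Ccnb2, at 1.26 ± 0.55 with a 95% interval of 0.06 to 2.46 (adjusted p = 0.202), and the smallest that of Ndc80, at -0.50 ± 0.38 (-1.32 to 0.32). The smallest p belonged to Cdca2, whose signals were 6.05, 5.48 and 5.39 in WT and 6.71, 6.70 and 6.34 in KO spleen. It differed by 1.01 ± 0.30 (95% interval 0.37 to 1.66, adjusted p = 0.054 in limma). All 3 KO arrays lay above all 3 WT arrays for 11 genes (14% of all genes), among them Ccnb2, Mki67, Aurkb, Cenpk, Cdca2 and Anln, and below them for 1, Racgap1 (14% of all genes). The spleen median was 0.03 within the first run, with 1 KO array, and 0.59 within the second, with 1 WT array. It was 0.24 without KO spleen array 1 and 0.80 without KO spleen array 3, and 3 genes were called, as higher, without KO bone marrow array 1, 1 without KO spleen array 3 and 1 without KO bone marrow array 3.

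In bone marrow, 0 of the 57 genes were called between KO and WT (limma, Benjamini-Hochberg), against 8.65% of all genes, and 4 had an unadjusted p under 0.05 (7.02%, against 23.8%). Here 55 of the 57 differences were negative, with a median of -0.62 (0.652-fold). The arrays of the genotypes overlapped for every one of the 57 genes, while 16.4% of all genes lay wholly higher and 17.8% wholly lower in KO. The smallest p was that of Plk4, at -1.0 ± 0.33 (adjusted p = 0.0895 in limma), followed by Plk1, at -1.10 ± 0.42 with a 95% interval of -2.02 to -0.17 (adjusted p = 0.14). The lowest value was that of Kif4, -1.13 ± 0.52 (-2.27 to 0.01), and the highest that of Anln, 0.22 ± 0.52 (-0.92 to 1.36). Aurka was the other gene above 0, at 0.19 ± 0.42. Its signals were 7.21, 7.26 and 6.69 in WT and 8.42, 7.08 and 6.43 in KO bone marrow, so KO array 1 alone lay above the WT arrays. Without KO bone marrow array 1, 14 genes were called, all lower, and the median was -1.11. The share of all genes called in that fit is not given here, so the 14 are not set against a background. The 14 were Racgap1 (-1.38 ± 0.26), Dlgap5, Ccnb2 (-1.69 ± 0.39), Plk4, Ncaph, Kif23, Ncapd2, Cdca8, Incenp, Kif4, Ncapg, Kif22, Ttk and Cenpk. Without KO bone marrow array 3 or WT bone marrow array 1 the median was -0.15 or -0.20, and 0 genes were called. WT bone marrow array 1 is the only WT bone marrow array in the run of the KO bone marrow arrays. Without it run and genotype coincide in bone marrow, and the run term then comes from the spleen arrays.

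Averaged over both tissues, 0 genes were called (19.1% of all genes) and the median was -0.10, with 2 genes at an unadjusted p under 0.05 (3.51%, against 31.3%). The lowest difference was that of Racgap1, -0.66 ± 0.26 (adjusted p = 0.0995 in limma), and the highest that of Anln, 0.64 ± 0.33 (adjusted p = 0.213). Without KO bone marrow array 1, 5 genes were called, as lower, and without KO bone marrow array 3, 2 were called, as higher. The difference between the KO effects of the tissues (bone marrow minus spleen, the interaction) called 0 of 57 genes in limma, against 1 of all 11963 genes (0.00836%). It was negative for 55 of 57, with a median of -0.95, and 13 genes had an unadjusted p under 0.05 (22.8%, against 9.13% of all genes). Among them were Plk1 (-1.75 ± 0.61, adjusted p = 0.421 in limma), Kif11 (-2.27 ± 0.90, 0.48), Ccnb2 (-2.20 ± 0.87, 0.48) and Mki67 (-2.03 ± 0.79, 0.475). The WT arrays enter both the WT tissue difference and the KO effects, so these values are not independent of each other. With 0 genes called, a different tissue effect in WT and KO was not shown for any single gene. The median was -0.47 without WT bone marrow array 1, -0.56 without KO bone marrow array 3, and -1.45 without KO bone marrow array 1 or KO spleen array 3. Without the run as a covariate it was -0.74, against -0.95 with it.

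**Figure D4:**
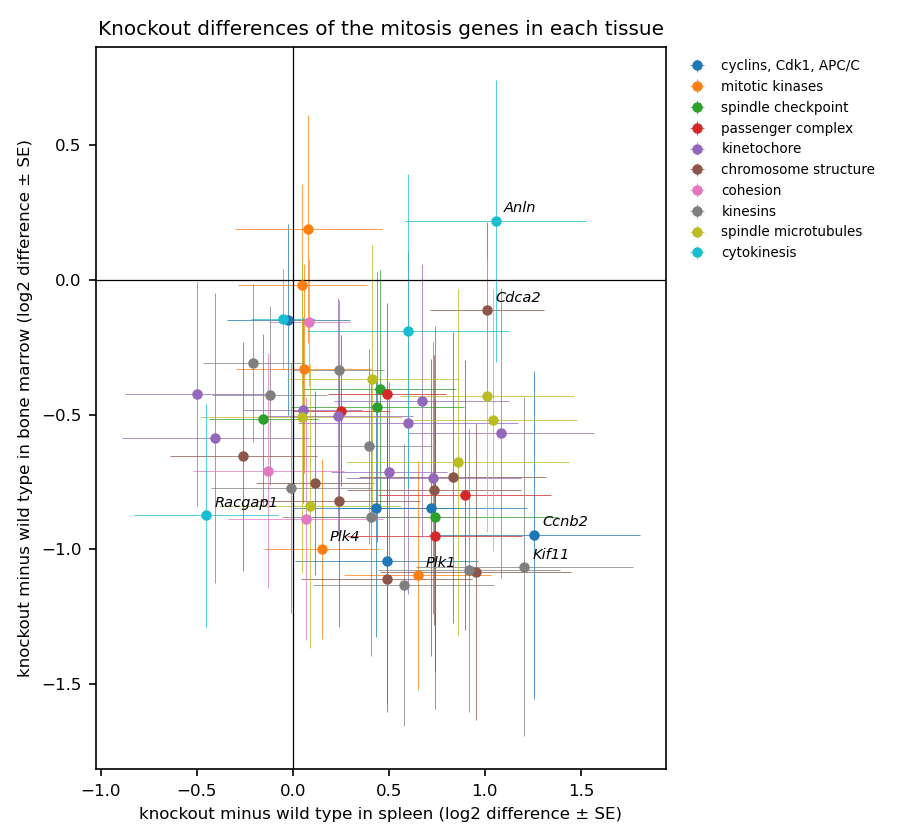
Each point is 1 of the 57 tested mitosis genes, coloured by role, with the KO minus WT difference in spleen on the x axis and in bone marrow on the y axis (log2, bars ± SE). Most points lie right of 0 and below 0, with Ccnb2 at 1.26 in spleen and -0.95 in bone marrow, and none is called in either tissue.

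The members varied together within groups as well as between them. In KO bone marrow, array 1 was above array 2 for 57 of 57 genes by a median of 0.99 (1.99-fold), and above array 3 for 57 of 57 by 1.94 (3.83-fold), whereas 47.9% and 50.9% of all genes were higher on array 1. Array 2 was above array 3 for 56 of 57. In WT bone marrow, array 1 was above array 3 for 57 of 57 genes by a median of 0.92. In spleen the gaps were smaller, with array 1 above array 2 for 51 of 57 genes in each genotype. The median SD of a member among the 3 arrays was 0.36 in WT spleen, 0.35 in KO spleen, 0.48 in WT bone marrow and 0.98 in KO bone marrow, against 0.12 to 0.15 for all genes. The residual SD of the fit had a median of 0.64 for the members and 0.16 for all genes. Over the 12 arrays the 1596 pairs of members had a median Pearson correlation of 0.90, from 0.23 to 0.99, where the mean over all gene pairs was 0.0027. With the group means removed the median was 0.85, again as a description, since all genes share the same 12 arrays. Incenp (0.99), Cenpe (0.99) and Kif4 (0.99) followed the mean of the other members most closely, and Racgap1 (0.56), Espl1 (0.57) and Nek2 (0.79) least.

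Further genes of division, regulators and replication showed the same tissue direction in WT, where 4.34% of all genes were called as higher and 1.04% as lower. Of 49 tested genes in a second list of mitosis genes, 15 were higher in WT bone marrow and 0 lower, led by Cenpt (0.96 ± 0.11), Arhgap11a (2.01 ± 0.33), Trip13 (1.45 ± 0.28) and Cks1b (2.22 ± 0.46). Of 36 replication genes 17 were higher and 0 lower, among them the helicase subunits Mcm7 (1.22 ± 0.14) and Mcm3 (1.22 ± 0.21). Of 22 regulators 4 were higher and 0 lower, namely Myc, the E2F genes E2f3 (1.62 ± 0.26) and E2f8 (2.12 ± 0.36), and the Cdk1-inhibiting kinase gene Pkmyt1 (0.55 ± 0.13). Foxm1, an activator of late cell cycle promoters, was at 6.04, 5.75 and 5.56 in WT spleen and 7.41, 6.82 and 6.92 in WT bone marrow (1.26 ± 0.38, adjusted p = 0.0769 in limma), and was not called between genotypes (-0.06 ± 0.38 in spleen, -0.33 ± 0.42 in bone marrow). Mybl2, the gene of B-Myb, was at 5.99 to 6.60 on all 12 arrays. Myc, a growth regulator, was at 9.27, 9.37 and 9.76 in WT spleen and from 10.62 to 11.03 in the 9 arrays of the other groups. It was higher in KO than in WT spleen by 1.20 ± 0.12 (limma, Benjamini-Hochberg adjusted p = 7.34e-05), where no member was called, and by 0.31 ± 0.13 in bone marrow (0.179).

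Of the 36 replication genes 7 were called between KO and WT bone marrow, all lower (19.4%, against 8.65% of all genes). Their median was -0.57, close to the -0.62 of the members, and the difference between the lists was not tested. The members' count of 0 there became 14 without KO bone marrow array 1, a fit with no share of all genes given beside it. Mcm4, a helicase subunit, was at 9.18, 8.79 and 8.55 in WT and 8.34, 7.89 and 7.39 in KO bone marrow, and fell by 1.11 ± 0.24 (adjusted p = 0.0139 in limma). Its 2 groups did not overlap. Averaged over both tissues 11 of the 36 replication genes were called, all lower (30.6%, against 19.1% of all genes called in either direction). Of the second mitosis list 7 of 49 were called, all lower (14.3%), among them the kinetochore gene Zwint (-0.57 ± 0.12) and the Cdk1-activating phosphatase gene Cdc25b (-0.59 ± 0.13). With the replicate number as a block beside the run, 10.2% of all genes were called as lower. That fit called 11 of the 36 replication genes and 7 of the 49 as lower. Of the G1 list, the G1 kinase genes Cdk4 (0.63 ± 0.11) and Cdk2 (0.81 ± 0.17) and the phosphatase gene Cdc25a (0.75 ± 0.16) were higher in KO spleen and the inhibitor gene Cdkn2d (-0.77 ± 0.15) lower. These are 26.7% of the 15 tested genes of the list, against 9.11% of all genes. Cdkn1b, the gene of the inhibitor p27, was at 10.52 to 11.06 on all arrays.

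Markers of other blood cells moved with some of the same comparisons. Of all genes 5.37% were called between the WT tissues, 9.11% between KO and WT spleen and 8.65% between KO and WT bone marrow. Of 10 tested granulocyte markers 7 were higher in WT bone marrow than in WT spleen, with array means of the list from 5.83 to 6.28 in WT spleen, 6.15 to 6.81 in KO spleen, 7.56 to 7.91 in WT bone marrow and 6.48 to 7.15 in KO bone marrow. S100a8 differed by 3.72 ± 0.37, whereas the defining surface marker Ly6g had group means of 4.04 to 5.26, below the signal filter. In KO bone marrow the granulocyte mean was 7.15, 6.48 and 7.03 on arrays 1, 2 and 3, which is not the order of the mitosis genes (8.0, 7.00 and 6.18). In WT bone marrow it was 7.91, 7.81 and 7.56, which is their order. Between KO and WT bone marrow 4 granulocyte markers were lower and 0 higher, with a median of -1.16. Of 6 dendritic cell and monocyte markers 5 were called between KO and WT spleen, 4 higher and 1 lower, with a median of 1.51 and array means of 7.49 to 8.17 in WT and 8.56 to 8.87 in KO spleen. In bone marrow that list's array means were 7.99 to 8.45 in WT and 8.54 to 8.81 in KO, and 1 marker was called, as higher. Of 8 T cell markers 3 were higher in WT bone marrow (array means 7.70 to 7.83, against 7.05 to 7.16 in WT spleen) and 5 lower in KO than in WT bone marrow. Although the cells were sorted as CD3-, the CD3 subunit gene Cd3d had group means of 7.61 in WT spleen, 6.40 in KO spleen, 9.34 in WT bone marrow and 6.51 in KO bone marrow, whereas Cd4 and Cd8b1 lay below the signal filter. Of 6 erythroid markers 2 were higher in WT bone marrow, Car1 and the transferrin receptor gene Tfrc, and of 4 B cell markers 0 were called. The erythroid array means were 6.47 to 6.55 in WT spleen and 6.85 to 7.26 in WT bone marrow. On arrays 1, 2 and 3 they were 7.26, 6.89 and 6.85 in WT and 6.87, 6.81 and 6.70 in KO bone marrow. That is the order of the mitosis genes, whereas the 6.89, 6.95 and 6.92 of KO spleen are not. With the group means removed, the mitosis mean had a Pearson correlation of 0.63 with the erythroid mean and 0.15 with the granulocyte mean. The part of these cells in the tissue and KO differences of the mitosis genes was not tested.

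**Figure D5:**
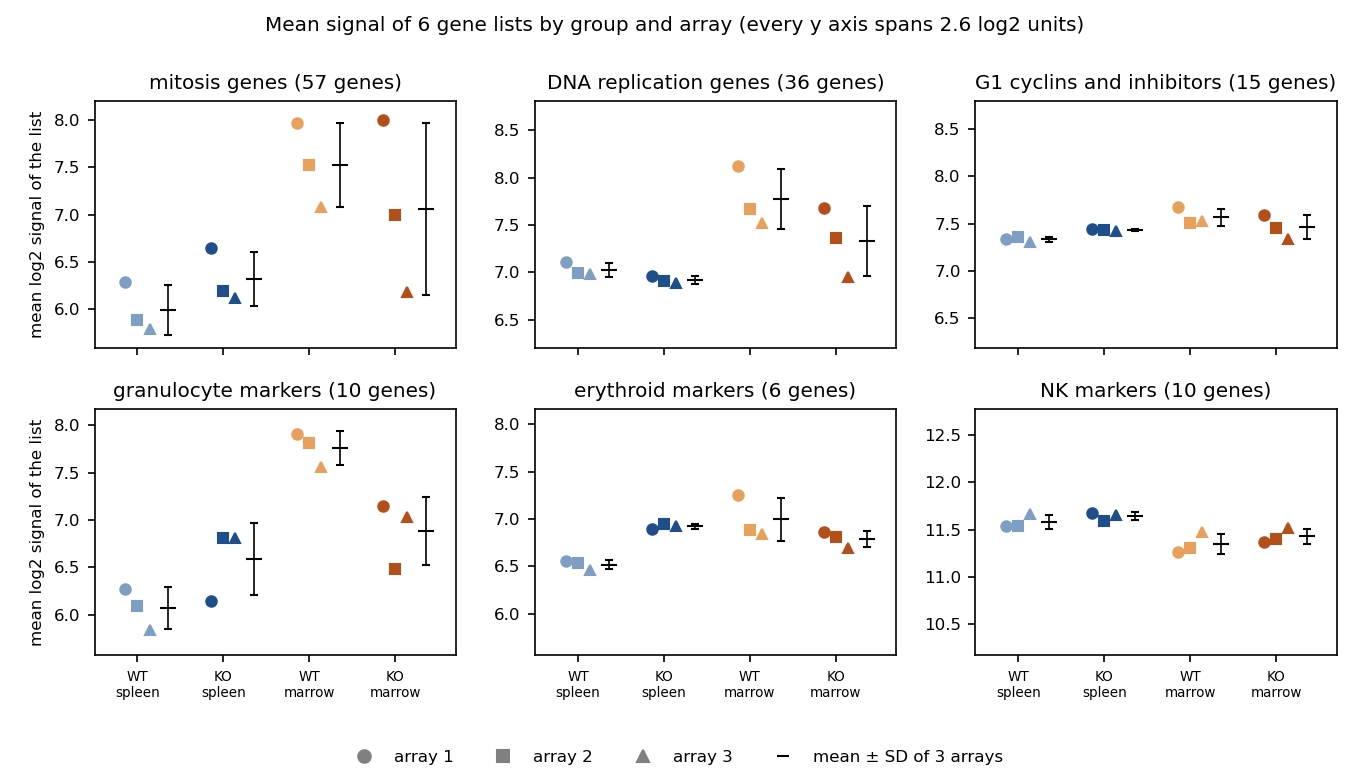
The mean log2 signal of 6 gene lists is plotted for each array (circle, square and triangle for arrays 1, 2 and 3) with the mean ± SD of 3 arrays in black, and every y axis spans 2.6 log2 units. The mitosis genes run from 5.79 to 8.0 and the NK markers only from 11.27 to 11.68. Array 3 of KO bone marrow is low for the mitosis and replication genes but not for the granulocyte markers. For the erythroid markers it is the lowest of its group, at 6.70.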

How the data were processed

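RNA of sorted NK cells was amplified and hybridised to Affymetrix arrays, per the labels' protocols. Each probe set has a deposited log2 signal, which the authors made with Affymetrix Expression Console and RMA, per the submitters' processing notes. Its versions, annotation and genome build: not given in the sources used here. Of 35556 probe sets, 21789 had 1 gene symbol. Of the members 58 were found in RefSeq's GRCm38.p6 table.

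A linear model with 4 group means and the run of array numbers (7 and 5 arrays, all KO bone marrow arrays in the first) was fitted to 11963 genes in limma 3.58.1 (R 4.3.3), with 7 residual and 4.74 prior degrees of freedom. A gene was called at a two-sided Benjamini-Hochberg adjusted p under 0.05 over all tested genes, in each of 6 comparisons. The steps were tested on simulated data. The labels call the arrays biological replicates.

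Values on every array are given for 10 measured members picked by role, the 12 called members with the smallest p and the extremes of each KO comparison, and Cdca2 and Aurka were added after their values were seen. Other genes come from lists, at most 4 each, and markers and the members named without array values were also chosen with values known. The members and lists were chosen with earlier results of these data known.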

Additional observations from a re-analysis of the deposited data

How the results depend on the processing

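The 32 genes higher in WT bone marrow kept their direction under every alternative run, and the median kept its sign. The count was 23 with trend and robust moderation, 25 of 34 tested with the filter at the 60th percentile, 31 with no filter, 37 without the run, 50 with only the 2 groups compared, 41 with arrays centred on their medians, 44 with the replicate number as a block beside the run, and 0 to 49 over the fits without 1 array. Over all genes the fits on all arrays of the groups called 729, 625, 543, 755, 689, 977 and 681, in the order just given, against 643 as reported. Whether same-numbered arrays are paired is not given, and the values do not settle it. Of 18 same-number pairs 6 correlated above 0.1 in their deviations from the group means (-0.02 to 0.24, median 0.08). Of 36 other pairs 0 did (median -0.02). An array's best match among the 3 arrays of another group had its own number in 29 of 36 cases (27 without the members). The numbers matched in all 3 groups for 6 of 12 arrays, a hint from the data and not the design. The replicate block with the run called 5 genes between KO and WT in spleen (4 higher, 1 lower; 9.14% of all genes called), 2 in bone marrow (8.15%), 3 over both tissues (19%) and 3 for the tissue difference in KO (0.41%), in place of 0. The replicate block without the run, chosen after seeing the data, called 5, 5, 6 and 7 in the same order. The share of all genes called in that fit is not given here.

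In spleen, KO against WT, 1 gene was called with the filter at the 60th percentile, 1 with arrays centred, 1 with quantile normalization again and 7 with only the 2 groups compared. Over all genes these fits called 1067, 1091, 1156 and 1105, against 1090 as reported. Without 1 array the counts ran from 0 to 3 in spleen, 0 to 14 in bone marrow and 0 to 5 over both tissues. Each was highest without KO bone marrow array 1, and no share of all genes is given here for that fit. The spleen median ran from 0.24 to 0.80. That median was 0.0298 within run 1, an alternative added after seeing the data. Where a group was left with 1 array within a run, it gives a value with no test. The causes were not tested. Medians changed sign only over both tissues, where the values lay between -0.33 and 0.09.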

Other observations

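Array 1 had the highest mean of the mitosis genes in all 4 groups. It was the highest of its group for 46 of the 57 genes in WT spleen, 49 in KO spleen, 53 in WT bone marrow and 57 in KO bone marrow. In WT spleen, WT bone marrow and KO bone marrow array 1 belonged to the first run of array numbers and in KO spleen to the second. A list of 10 NK markers had its lowest mean of the group on array 1 in WT spleen (11.54), WT bone marrow (11.27) and KO bone marrow (11.37), and its highest there in KO spleen (11.68). What sets the array 1 samples apart was not tested.

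Genes of mature NK cells moved with the WT tissue comparison, whereas a list of immature NK genes was mixed. Of its 9 tested genes 2 were called as higher and 1 as lower in WT bone marrow. Of the mature NK list, Itgam (-1.07 ± 0.17), Klrg1 (-1.48 ± 0.25), Cx3cr1 (-1.10 ± 0.21), S1pr5 (-1.23 ± 0.13), Zeb2 (-1.40 ± 0.16) and Cma1 (-1.26 ± 0.23) were lower in WT bone marrow, where the mitosis genes were higher. In KO against WT bone marrow 6 of the 8 mature NK genes had negative differences, with a median of -0.43. Of these 8, Klrg1 (1.38 ± 0.27) and the granzyme gene Gzmb (1.31 ± 0.14) were called as higher and Cma1 (-1.75 ± 0.26) as lower. Of the 9 immature NK genes 5 were called as lower and 0 as higher there, with a median of -1.06. Among all genes 8.65% were called, and 0 mitosis genes were.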
